A study of Mus musculus with 12 samples.

Results

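Ly6a, Ly6c1, Ly6c2, Ly6e and Ly6i encode small surface proteins of the mouse Ly6 family, and their transcripts were followed here in microglia exposed to T cell culture supernatants. The members were all array probes whose transcript accession RefSeq assigns to 1 of these 5 genes. There were 5 such probes among 39429 on the array: 1 for Ly6a, 1 for Ly6e, 1 for Ly6i, 2 for Ly6c1 and none for Ly6c2. All 5 passed the detection filter, which asked that the scanner software flag a probe as well above background on 4 or more of 12 arrays and kept 24287 probes, and 3 of the 5 were flagged on every array. The genes were selected on the signals and detection flags of all 12 arrays, so the members' signals and differences are given as a description without p-values.

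The microglia came from mixed glial cultures of neonatal C57BL/6 mouse brain and were shaken off the other glia. RNA was hybridised to 1-colour Agilent arrays in 3 groups of 4: microglia given supernatant of Th1 cells, microglia given supernatant of Th17 cells, and untreated microglia whose sample titles name the T cell medium IMDM. Each experiment, numbered 12, 13, 14 and 16, contributed 1 array to each group. Th1 and Th17 cells are CD4+ helper T cells known for secreting interferon-gamma and interleukin-17, and the design asks what their soluble products do to microglial transcripts. The sources used here give an exposure time for astrocytes, so none is stated for the microglia.

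Ly6 proteins share a compact fold held together by disulfide bonds and are tethered to the outer face of the membrane by a glycosylphosphatidylinositol (GPI) anchor. Ly6a, also called Sca-1, is a marker of mouse haematopoietic stem cells and is also found on activated T cells and endothelium. Ly6c1 and Ly6c2 encode near-identical Ly6C proteins, which mark inflammatory monocytes and are also carried by endothelial and memory T cells. Ly6e is broadly expressed and alters the entry of several viruses into cells, and Ly6i is a close relative of Ly6a and Ly6c. Several genes of the family are known targets of interferons.

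All 5 genes lie on chromosome 15, in the order Ly6e, Ly6i, Ly6a, Ly6c1 and Ly6c2. Because this cluster holds close copies, a probe for 1 member may also bind transcripts of another, and Ly6a, Ly6c1 and Ly6i signals carry that uncertainty. The 250 bases before the most upstream annotated start are printed for Ly6c1, which has 2 probes of unlike behaviour, and for its neighbour Ly6c2, which has no probe (RefSeq, GRCm38.p6). The Ly6c1 window is chr15:75048838-75049087 and the Ly6c2 window is chr15:75111972-75112221, both on the minus strand, 5′ to 3′, with matches to TATAAA in capitals.
Ly6c1: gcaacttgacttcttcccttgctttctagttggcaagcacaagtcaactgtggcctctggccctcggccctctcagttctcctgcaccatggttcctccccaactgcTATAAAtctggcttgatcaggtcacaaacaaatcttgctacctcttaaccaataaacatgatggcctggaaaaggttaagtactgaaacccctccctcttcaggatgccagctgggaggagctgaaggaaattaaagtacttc
Ly6c2: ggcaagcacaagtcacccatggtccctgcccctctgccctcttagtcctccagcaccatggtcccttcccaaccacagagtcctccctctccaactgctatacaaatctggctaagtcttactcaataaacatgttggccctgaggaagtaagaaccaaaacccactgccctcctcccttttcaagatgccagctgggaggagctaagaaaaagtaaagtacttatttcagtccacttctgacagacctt
In a global alignment, 171 of 210 aligned bases were identical (81.4%), beside 80 gap positions. The windows were searched on both strands for the gamma-activated site TTCNNNGAA, the core GAAANNGAA of the interferon-stimulated response element and TATAAA. Neither window held TTCNNNGAA, which occurred in 7.02%, or GAAANNGAA, which occurred in 7.13% of 32851 promoter windows of this length. Ly6c1 held 1 match to TATAAA, against 12.4% of all windows, and Ly6c2 held none. Promoters of Ly6a, Ly6e and Ly6i were not analysed here.

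Signals are given as background-subtracted brightness after quantile normalisation, scaled so that the 75th percentile is 1500, with values under 15 set to 15, and on the log2 scale of that signal. They order arrays at 1 probe and are not compared between probes. A difference is the first group's mean log2 signal minus the second's, with the standard error (SE) of a limma fit over all 24287 probes. A probe was called if that fit gave it more than a 2-fold change at an adjusted p below 0.01. Arrays flagged 54.49% to 64.99% of probes well above background and no spot was saturated. On the first principal component, Th1 arrays lay between 95.3 and 123.8, Th17 13 at -32.9 and the other 7 arrays between -65.7 and -51.9. All 18 microglia markers on a list were above background on all 12 arrays. Of measured markers, 6 of 8 endothelial, 5 of 6 T cell and 6 of 9 monocyte and neutrophil ones were too. Detection alone therefore does not establish the labelled cell type. Between Th1 and untreated microglia 6 of the 18 were called lower and 3 higher, where 9.04% and 8.21% of all named genes were.

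Ly6a gave the widest separation between groups. Its normalised signal was 32400, 21670, 36360 and 13040 in Th1 microglia of experiments 12, 13, 14 and 16. In the same order it was 15, 238.5, 61.2 and 15 in Th17 microglia and 15, 15, 63.84 and 15 in untreated microglia. Every Th1 array lay far above every other array, whereas Th17 and untreated arrays overlapped. The value of 15 is the floor: the probe was well above background on 4 Th1, 2 Th17 and 1 untreated array. Mean log2 signal was 14.55 ± 0.67 in Th1 and 4.43 ± 1.04 in untreated microglia (SD, n = 4 each), a difference of 10.12 ± 0.83 (SE) or 1110-fold. The size of this fold change rests on the floor, and the difference was 8.82 with a floor of 50 and 7.43 with a normexp correction, which models each spot's brightness as signal plus background. In experiment 14, where the untreated array was above background, the difference was 9.15, and in experiments 12, 13 and 16 the untreated value was the floor.

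**Figure D1:**
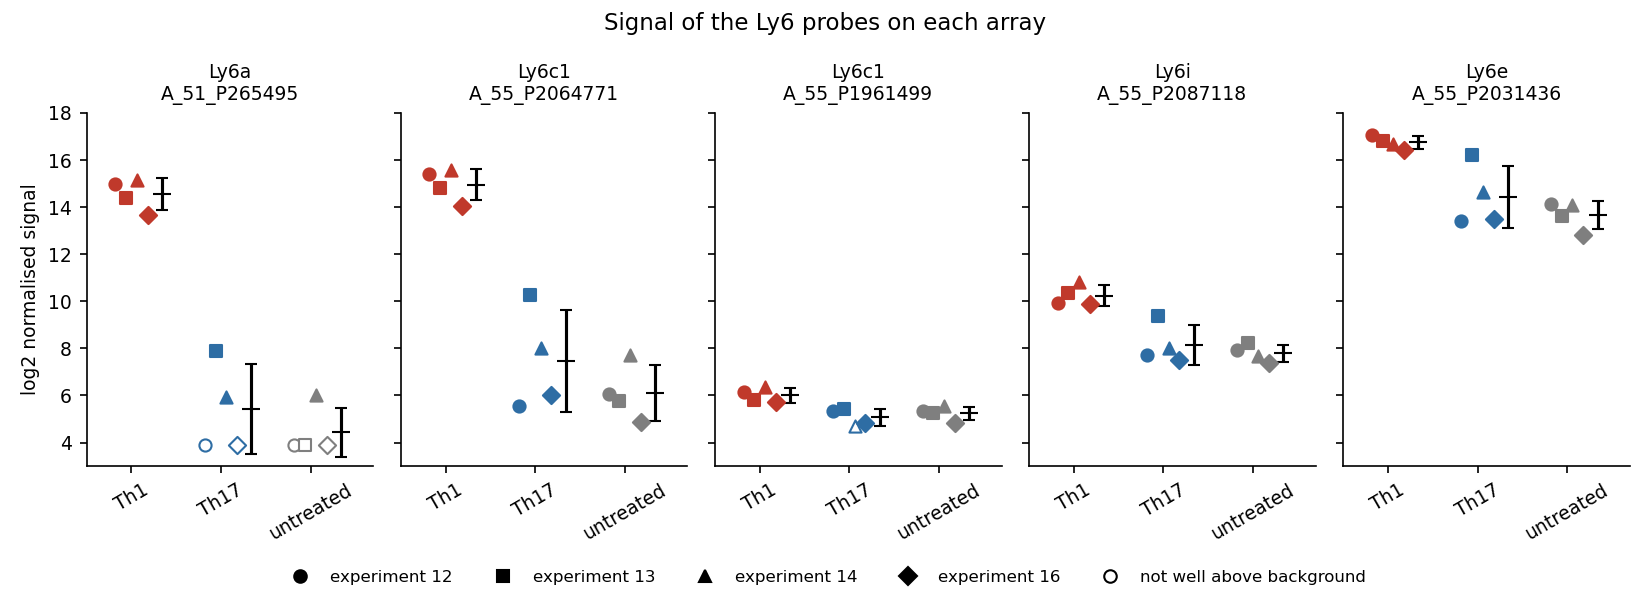
Log2 normalised signal of the 5 Ly6 probes on each of the 12 arrays, with group means and SD (n = 4). Th1 arrays lie above all Th17 and untreated arrays at every probe, for Ly6a between 13.67 and 15.15, and Th17 13 is the highest Th17 array at each of them.

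Ly6c1 was separated almost as widely at its probe A_55_P2064771. The signal was 42970, 28700, 48150 and 17220 in Th1 microglia of experiments 12, 13, 14 and 16. It was 46.92, 1245, 260.1 and 64.69 in Th17 microglia and 66.4, 54.04, 211.6 and 29.71 in untreated microglia. Unlike Ly6a, this probe was well above background on all 12 arrays, so its values do not rest on the floor. The mean log2 signal was 14.96 ± 0.67 in Th1 and 6.11 ± 1.19 in untreated microglia (SD, n = 4 each), a difference of 8.85 ± 0.93 (SE) or 461-fold, and of 7.14 on the log2 scale with the normexp correction.

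The other Ly6c1 probe, A_55_P1961499, is assigned to a different transcript of the gene and showed a small difference. Its signal was 70.76, 55.79, 83.19 and 52.51 in Th1 microglia, against 40.01, 37.99, 46.49 and 28.77 in untreated microglia. The groups did not overlap, but the difference was 0.77 ± 0.21 (SE), or 1.71-fold, and the probe was not called. In Th17 microglia it read 39.96, 43.47, 25.75 and 28.63, within or under the untreated range. With a floor of 50 the difference between Th1 and untreated microglia was 0.37. The 2 Ly6c1 probes thus disagreed on the size of the change. Their order of Th1 arrays was the same, with experiment 14 highest and experiment 16 lowest. Probe sequences were not used here, so which Ly6c transcripts each probe binds was not tested.

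Ly6e was well above background on all 12 arrays. Its signal was 137400, 116400, 106300 and 87650 in Th1 microglia of experiments 12, 13, 14 and 16, against 17880, 12640, 17480 and 7303 in untreated microglia. All Th1 arrays were higher than all untreated arrays. The mean log2 signal was 16.75 ± 0.27 in Th1 and 13.67 ± 0.60 in untreated microglia (SD, n = 4 each), a difference of 3.08 ± 0.54 (SE) or 8.48-fold. In Th17 microglia the signal was 10800, 75970, 25690 and 11570, so that Th17 13 came close to the Th1 array of lowest signal while Th17 12 and Th17 16 lay within the untreated range.

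Ly6i differed least of the genes with a called probe. Its signal was 968.1, 1308, 1797 and 939.1 in Th1 microglia, against 241.2, 297.6, 202 and 164.1 in untreated microglia. The groups were separate, and the probe was well above background on all 12 arrays. The mean log2 signal was 10.24 ± 0.44 in Th1 and 7.79 ± 0.37 in untreated microglia (SD, n = 4 each), a difference of 2.45 ± 0.37 (SE) or 5.47-fold. Th17 microglia read 210.3, 661.1, 261.7 and 179.9, with only Th17 13 above the untreated range.

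Between Th1 and untreated microglia, 4 of 5 member probes were called higher and none lower, where 7.56% of all probes were called higher and 7.98% lower. All 5 had groups that did not overlap, with Th1 higher, as did 19% of all probes (21.9% did not overlap with Th1 lower). This contrast was part of the selection. In RNA from whole cultures, a change in the number of expressing cells and a change in RNA per cell cannot be told apart. Each group mean is from 4 arrays, and p-values and SE cover these 4 experiments only. They come from an unpaired fit that pools the spread within all 3 groups, Th17 included. For Ly6a the residual SD was 1.32, against SDs of 0.67 in Th1, 1.91 in Th17 and 1.04 in untreated microglia.

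Th1 arrays also varied among themselves in a shared way. The array of experiment 16 had the lowest signal at all 5 probes, and it was also the lowest Th1 array on the first principal component, at 95.3. Experiment 14 was highest at 4 of the 5, the exception being Ly6e, which was highest in experiment 12. Untreated 16 was likewise the lowest untreated array at every probe, for Ly6a tied at the floor. Within experiments 14 and 16, Th1 minus untreated microglia was 9.15 and 9.76 for Ly6a, and 7.83 and 9.18 for Ly6c1 (A_55_P2064771). These differences were 2.60 and 3.59 for Ly6e, 3.15 and 2.52 for Ly6i, and 0.84 and 0.87 at the other Ly6c1 probe. The order of the Th1 arrays was thus not the order of the differences. The arrays lay on 3 slides of 4, and each slide held all 3 groups. Within slides 1, 2 and 3, Th1 minus untreated microglia was 11.08, 8.78 and 9.76 for Ly6a. It was 9.49, 7.46 and 9.18 for Ly6c1 (A_55_P2064771), and 0.86, 0.55 and 0.87 for its other probe. It was 3.19, 2.67 and 3.59 for Ly6e, and 1.85, 2.92 and 2.52 for Ly6i. Every member was therefore higher in Th1 microglia within every slide.

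In Th17 microglia the members' mean log2 signals differed from the untreated means by -0.17 to 1.36. Ly6a averaged 5.41 ± 1.91 in Th17 and 4.43 ± 1.04 in untreated microglia on the log2 scale (SD, n = 4 each), a difference of 0.98 ± 0.83 (SE). Ly6c1 averaged 7.47 ± 2.16 in Th17 and 6.11 ± 1.19 in untreated microglia, a difference of 1.36 ± 0.93, and its other probe differed by -0.17 ± 0.21. Ly6e averaged 14.44 ± 1.31 in Th17 and 13.67 ± 0.60 in untreated microglia, a difference of 0.77 ± 0.54. Ly6i averaged 8.15 ± 0.84 in Th17 and 7.79 ± 0.37 in untreated microglia, a difference of 0.37 ± 0.37. At all 5 probes the groups overlapped, where 0.544% of all probes lay higher without overlap and 0.416% lower, and 0 were called. Limma called 0 of 24287 probes in this comparison (0% higher and 0% lower). The smallest adjusted p was 0.732, 380 probes had an unadjusted p under 0.05, and fits with the experiment or the slide as a block also called 0.

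**Figure D2:**
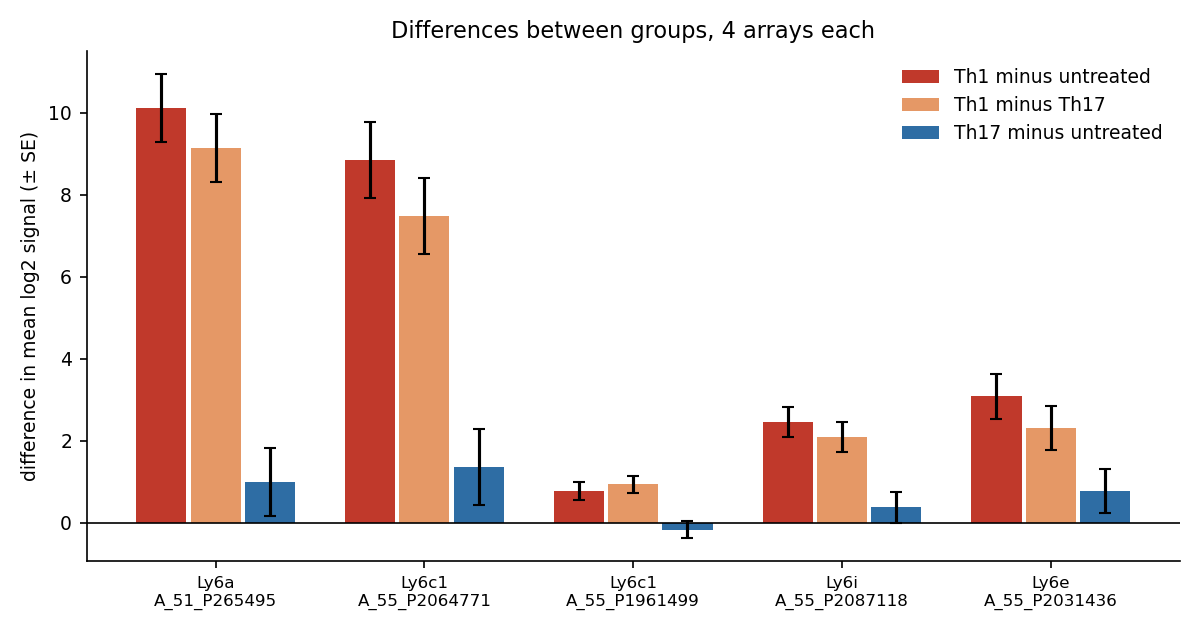
Differences in mean log2 signal between groups for the 5 Ly6 probes, with the SE of the limma fit (4 arrays a group). Both Th1 differences are largest for Ly6a, at 10.12 and 9.14, while the Th17 bars lie between -0.17 and 1.36.

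These averages rest largely on 1 array. Th17 13 was the highest Th17 array at every member probe. Before normalisation, its 75th percentile of signal was 2417.2, against 1292.7 to 1752.6 on all other arrays. The part of this brightness in the member values was not tested. Relative to the mean of the other 3 Th17 arrays, the log2 signal of Th17 13 was higher by 3.75 for Ly6c1 (13.5-fold) and 3.31 for Ly6a (9.95-fold). It was higher by 2.36 for Ly6e (5.15-fold) and 1.62 for Ly6i (3.08-fold). At the other Ly6c1 probe it was higher by 0.49. Without Th17 13, the difference between Th17 and untreated microglia was 0.15 for Ly6a, 0.42 for Ly6c1, 0.18 for Ly6e and -0.04 for Ly6i, and -0.29 at the other Ly6c1 probe.

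Th17 13 reached unequal shares of the Th1 difference. Its log2 distance from the untreated mean was 82.5% of the distance between Th1 and untreated means for Ly6e, 64.5% for Ly6i, 47.2% for Ly6c1 and 34.3% for Ly6a. The other Ly6c1 probe, with the smallest Th1 difference, reached 26.4%. The share for Ly6a rests on an untreated mean that includes 3 arrays at the floor. The next Th17 array, Th17 14, reached 31.8% for Ly6e, 21.7% for Ly6c1, 14.9% for Ly6a and 10% for Ly6i. Th17 12 and Th17 16 lay between -12.1% and -1% for these probes, that is, just under the untreated mean.

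**Figure D3:**
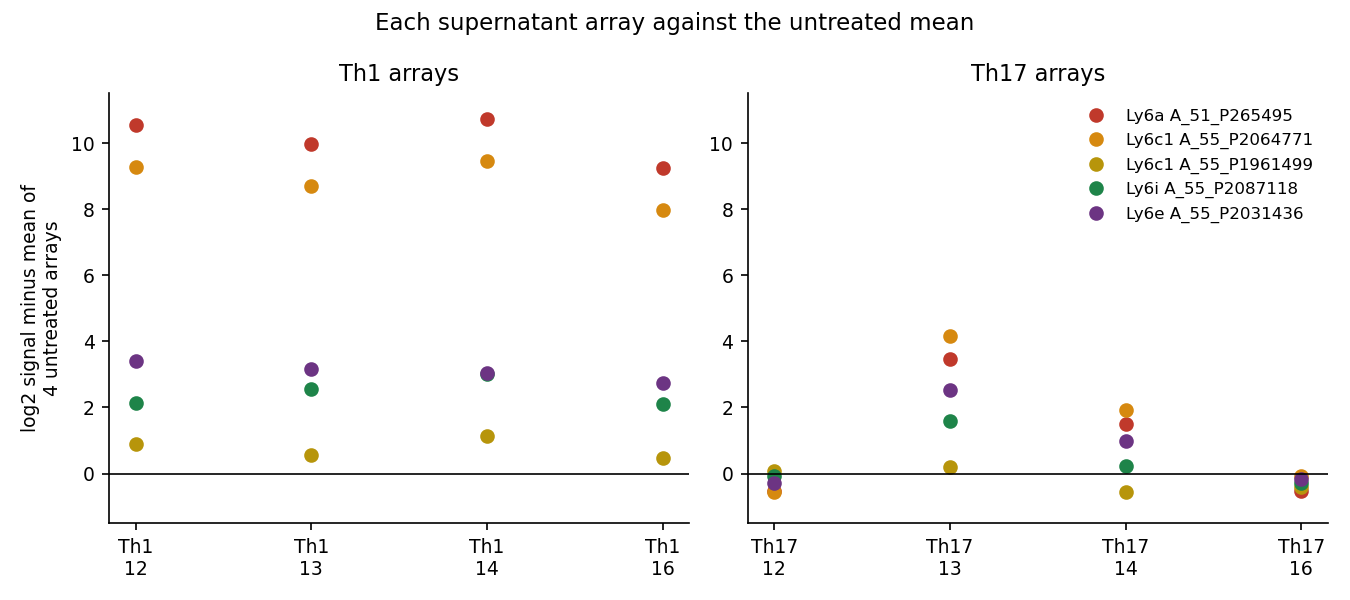
Log2 signal of each Th1 array and each Th17 array minus the mean of the 4 untreated arrays, for the 5 Ly6 probes by experiment. The Th1 arrays keep a similar spacing of the probes, and among the Th17 arrays Th17 13 stands highest, with Ly6c1 (A_55_P2064771) at 4.18 and Ly6a at 3.47.

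Experiment 14 carried a smaller elevation in its untreated array as well. Untreated 14 read 6.0 for Ly6a and 7.73 for Ly6c1 on the log2 scale, against 3.91 for Ly6a and 4.89 to 6.05 for Ly6c1 on the other untreated arrays. Th17 14 read 5.94 and 8.02 at these 2 probes. Ly6e and Ly6i did not share this in untreated 14, with Ly6e at 14.09 beside 14.13 in untreated 12, and Ly6i at 7.66 within the range of the other untreated arrays. By mean log2 signal, astrocyte markers were also higher in experiment 14. The 8 measured markers averaged 8.04 in Th1 14, 8.15 in Th17 14 and 8.48 in untreated 14. On all other arrays they averaged 7.10 to 7.68. By this measure, fibroblast and mural markers were higher in Th17 14 and untreated 14 too. The 4 measured markers averaged 8.31 in Th17 14 and 8.94 in untreated 14. They averaged 7.71 in Th1 14 and 6.87 to 7.69 on all other arrays. Summed signal gave another order, with astrocyte markers higher in untreated 16 (12126) than in untreated 14 (9102). The same held for Th17 16 (11976) and Th17 14 (7660). The fibroblast and mural sum was 3931 in untreated 14, the highest untreated value, but 2696 in Th17 14 against 3003 in Th17 12. The part of either marker list in the Ly6a and Ly6c1 values was not tested.

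Set against Th17 microglia, Th1 microglia had higher signal at all 5 member probes, without overlap, as at 18.8% of all probes (22.4% did not overlap with Th1 lower). The difference was 9.14 ± 0.83 (SE) for Ly6a, 7.49 ± 0.93 for Ly6c1, 2.31 ± 0.54 for Ly6e and 2.09 ± 0.37 for Ly6i, and 0.94 ± 0.21 at the other Ly6c1 probe. Of the 5 probes, 4 were called higher, where 7.02% of all probes were called higher and 7.95% lower. This comparison shares its Th1 arrays with the one against untreated microglia. Leaving out single arrays moved this count between 3 and 5: the Ly6e call was lost without Th1 12, Th1 13, Th1 14, Th17 12, Th17 14 or Th17 16, and the other Ly6c1 probe was called without Th1 13, Th1 16, Th17 12 or Th17 13. Within slide 2, where Th17 13 was the Th17 array, the difference was 0.55 for Ly6e and 1.21 for Ly6i, against 3.67 and 2.20 within slide 1. For Ly6a it was 6.88 within slide 2 and 11.08 within slide 1, and for Ly6c1 4.90 and 9.84. Without Th17 13 the differences were 9.97 for Ly6a, 8.43 for Ly6c1, 2.90 for Ly6e and 2.49 for Ly6i.

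Apart from the dimmer Ly6c1 probe, the members fell into pairs by the distance between their profiles over the 12 arrays. Likeness was measured as the root mean square (RMS) distance of log2 signal, each probe taken relative to its untreated mean. Ly6a and Ly6c1 (A_55_P2064771) lay 0.82 apart and Ly6e and Ly6i 0.63 apart, whereas distances between the pairs were 3.41 to 4.53. The 2 Ly6c1 probes lay 4.89 apart, and the dimmer, A_55_P1961499, lay 5.54 from Ly6a, 1.58 from Ly6e and 1.10 from Ly6i. This measure mainly follows the size of the Th1 difference, and all points share the same arrays.

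Among all measured genes, those nearest to Ly6a were the guanylate-binding protein gene Gbp6 (RMS 0.52), the interferon-inducible GTPase gene Tgtp2 (0.65), the serine protease inhibitor gene Serpina3f (0.74), Gbp4 (0.78) and Gm4951 (0.84). Nearest to Ly6c1 were Gm4951 (0.52), the fibrinogen-like gene Fgl2 (0.60) and Gbp2 (0.60). Among the genes nearest to Ly6e were the large GTPase gene Gvin1 (0.38) and the RNA sensor gene Dhx58 (0.39). Nearest to Ly6i were Bst2, which encodes the virus-tethering protein tetherin (0.23), the immunoproteasome subunit gene Psmb8 (0.27) and the oligoadenylate synthetase gene Oas1a (0.29). Th17 13 entered the distance, so how these genes behaved on that array was part of their choice.

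**Figure D4:**
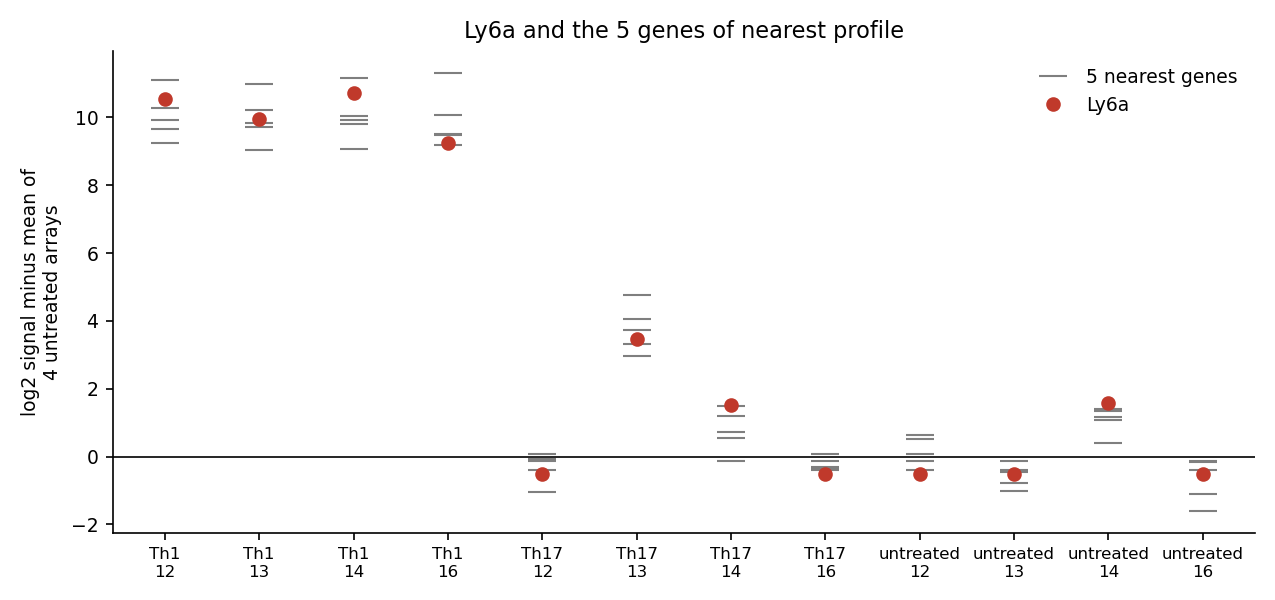
Ly6a and its 5 nearest genes by RMS distance, as log2 signal minus the mean of the 4 untreated arrays, on all 12 arrays. The genes follow Ly6a through the high Th1 arrays and through Th17 13, where Ly6a stood 3.47 above the untreated mean.

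In the Th1 comparisons, other genes of the Ly6/uPAR superfamily were called higher at a share near that of all named genes. Proteins of this superfamily share the Ly6 fold. Of 44 listed genes, 38 had a probe and 20 were measured. Between Th1 and untreated microglia 2 of the 20 were called higher and 0 lower, where 8.21% and 9.04% of all named genes were called, and their median difference was 0.34, against -0.05 over all named genes. Between Th1 and Th17 microglia the same 2 genes were called higher, where 7.51% of all named genes were called higher and 9.12% lower, and between Th17 and untreated microglia 0 were, with 1 at an unadjusted p under 0.05.

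The 2 genes were Ly6f and Ly6g6e. Ly6f lies in the same chromosome 15 cluster and is a close relative of the members. Whether the Ly6f probe also binds transcripts of the members was not tested, so Ly6f carries the same uncertainty as Ly6a, Ly6c1 and Ly6i. Its signal was 801.7, 926.6, 1214 and 720.7 in Th1 microglia of experiments 12, 13, 14 and 16. It was 15, 324.2, 57.38 and 15 in Th17 microglia and 15, 15, 23.3 and 15 in untreated microglia. The Th1 arrays were separate from all others, and Th17 13 again was the highest of the rest. Ly6f rose by 5.74 ± 0.78 (SE) in Th1 against untreated microglia (limma, adjusted p = 0.000125) and by 4.31 ± 0.78 against Th17 microglia (adjusted p = 0.00101). It was well above background on 1 of 4 untreated arrays, so this size rests on the floor, and the probe passed the detection filter through the Th1 arrays, where it is high, so its p-values are no independent support.

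Ly6g6e belongs to a set of Ly6 genes in the major histocompatibility complex. Its signal was 1276, 770.6, 1167 and 841.2 in Th1 microglia, 45.81, 33.73, 50.41 and 58.23 in Th17 microglia and 42.73, 23.41, 23.13 and 16.13 in untreated microglia. It rose by 5.33 ± 0.28 (SE) in Th1 against untreated microglia (limma, adjusted p = 1.04e-07) and by 4.42 ± 0.28 against Th17 microglia (adjusted p = 5.1e-07). Unlike the members and Ly6f, it was lowest among Th17 arrays in Th17 13. Its relatives Ly6g6c, Ly6g6d and Ly6g5b differed by 0.32 ± 0.12, -0.72 ± 0.26 and -0.54 ± 0.41 between Th1 and untreated microglia and were not called.

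Several relatives with known roles were not called either. Plaur, the urokinase receptor, differed by -0.24 ± 0.51 (SE) between Th1 and untreated microglia (limma, adjusted p = 0.736). Cd59a, which encodes an inhibitor of complement, differed by -1.47 ± 0.51 (adjusted p = 0.035) and was called lower with the experiment as a block (adjusted p = 2.09e-05). Gpihbp1, which anchors lipoprotein lipase on endothelium, and Ly6k differed by 0.54 ± 0.13 and 0.78 ± 0.18, under the 2-fold limit. Of 25 genes listed as neighbours of the members on chromosome 15, 7 had a probe, 4 were measured and 1 was called. It was Ly6f, already counted above, where 8.21% of all named genes were called higher in Th1 than in untreated microglia.

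**Figure D5:**
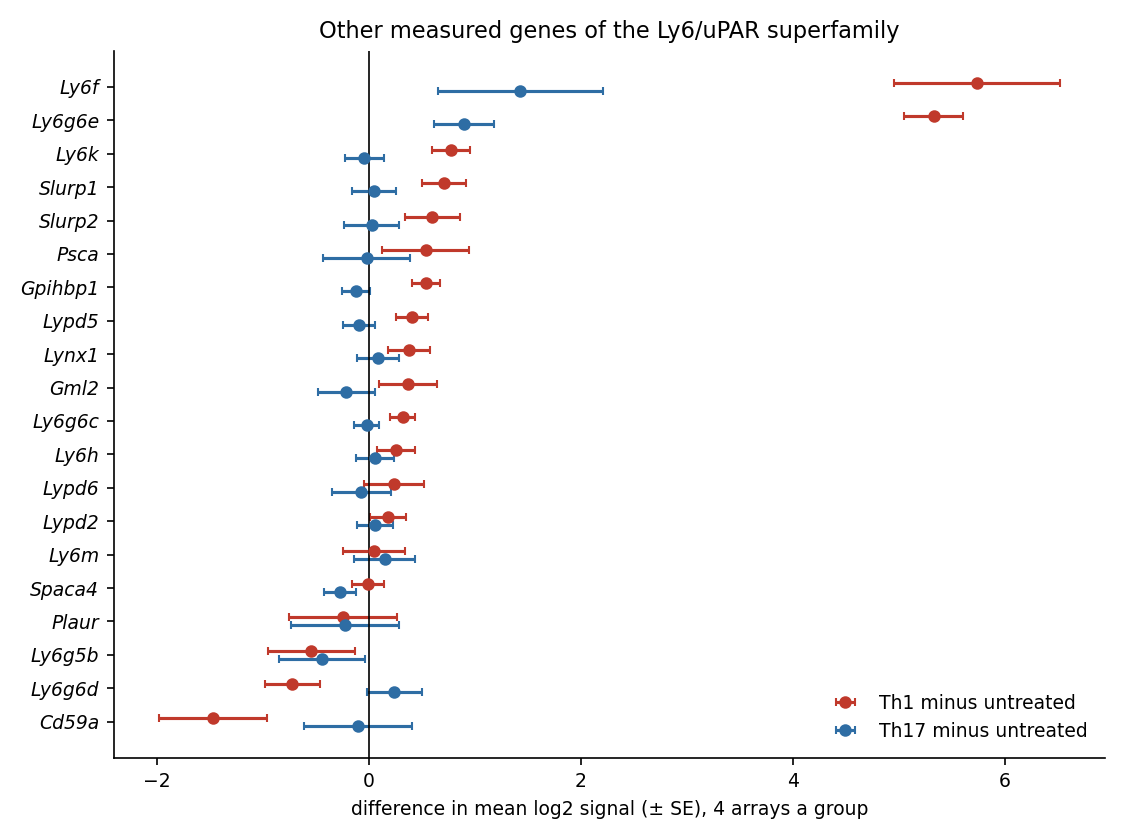
Differences in mean log2 signal, with SE, between Th1 and untreated microglia and between Th17 and untreated microglia for the 20 other measured genes of the Ly6/uPAR superfamily. Ly6f at 5.74 and Ly6g6e at 5.33 stand apart, and the other 18 lie between -1.47 and 0.78 in the Th1 comparison.

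Of 28 measured genes that build, attach or remodel the GPI anchor, 2 were called higher in Th1 than in untreated microglia and 0 lower. Their median difference was 0.01. Over all named genes, 8.21% were called higher and 9.04% lower. Pgap2, which remodels the anchor lipid, rose by 1.39 ± 0.24 (SE; limma, adjusted p = 0.000757), and Mppe1, which trims the anchor glycan, rose by 1.37 ± 0.15 (adjusted p = 2.16e-05). Without untreated 16, 4 were called. Against Th17 microglia 7.51% of all named genes were called higher and 9.12% lower. Of the 28 genes 1 was called, Mppe1 at 1.28 ± 0.15 (limma, adjusted p = 3.93e-05). None was called with the normexp correction, and 3 were called without Th17 13 or without Th1 16, of which Pgap1 was lower (-1.08 and -1.05).

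Other GPI-anchored proteins of leukocytes were called in both directions. Of 14 measured genes, 2 were higher and 6 lower in Th1 than in untreated microglia, with a median of -1.16. Over all named genes, 8.21% were called higher and 9.04% lower. Bst1, an ectoenzyme that cleaves NAD, rose by 6.18 ± 0.28 (SE; limma, adjusted p = 2.94e-08), and Bst2, the gene nearest to Ly6i in profile, rose by 2.48 ± 0.34 (adjusted p = 0.000138). Cd109 fell by 3.68 ± 0.36 (adjusted p = 1.04e-05), the lipopolysaccharide co-receptor gene Cd14 fell by 3.28 ± 0.38 (adjusted p = 3.8e-05), and Raet1e, a ligand of the NKG2D receptor, fell by 2.65 ± 0.28 (adjusted p = 2.09e-05). Against Th17 microglia 2 of the 14 were called higher and 5 lower, where 7.51% and 9.12% of all named genes were. Without Th17 13, 11 of the 14 were called.

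Interferon-gamma signals through a surface receptor and Janus kinases. Of 17 measured genes of this pathway, 10 were higher and 1 lower in Th1 than in untreated microglia, with a median of 1.24. Over all named genes, 8.21% were called higher and 9.04% lower. The feedback inhibitors Socs1 and Socs3 rose by 8.09 ± 0.41 (SE; limma, adjusted p = 6.51e-08) and 5.50 ± 0.36 (adjusted p = 5.29e-07). The transcription factors Irf1 and Stat2 rose by 4.34 ± 0.25 (adjusted p = 1.59e-07) and 3.23 ± 0.34 (adjusted p = 1.87e-05). The 1 gene that fell, named after its value was seen, was the receptor subunit gene Ifngr1, at -1.09 ± 0.20 (adjusted p = 0.000979), with -0.99 without untreated 14 and -0.98 without Th1 16, where it was no longer called. In Th17 against untreated microglia 0 of the 17 were called, with 3 at an unadjusted p under 0.05.

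Since Ly6a and Ly6c1 are also carried by endothelial cells, monocytes and T cells, markers of those cells were read beside them. Of 13 endothelial markers, 8 were measured, and Cldn5, Tek, Emcn, Esam and Tie1 did not pass the detection filter. Of the 8, 6 were well above background on all 12 arrays. The summed signal of the 8 was 20903 to 29064 in Th1, 13103 to 15484 in Th17 and 15668 to 19813 in untreated microglia. Vwf rose by 3.79 ± 0.54 (SE) in Th1 against untreated microglia (limma, adjusted p = 0.000176), Egfl7 fell by 1.78 ± 0.15 (adjusted p = 4.05e-06), and Pecam1 differed by 0.60 ± 0.12 and Cdh5 by 0.99 ± 0.40 without being called. The sum was thus higher in Th1 microglia, where Vwf alone read 4006 to 7709, against 214.1 to 1102 in untreated microglia. Of 2 bright markers named after their values were seen, Flt1 read 5712 to 13000 in Th1 and 2165 to 6733 in untreated microglia. The other, Kdr, read 6250 to 10450 in Th1 and 8569 to 11910 in untreated microglia. The part of the sum in the Ly6a and Ly6c1 differences was not tested. In Th17 13 the sum was 13103, against 13454 to 15484 on the other Th17 arrays. By mean log2 signal Th17 13 read 8.40, against 8.30 to 8.57 on the others. The part of these markers in the Th17 13 values was not tested.

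Monocyte and neutrophil markers summed to 38809 to 75208 in Th1, 44116 to 78070 in Th17 and 43828 to 73979 in untreated microglia. The groups overlapped, 9 of 14 markers were measured, and S100a9, Mpo, Cxcr2, Chil3 and Retnlg did not pass the filter. Of the 9, 6 were well above background on all 12 arrays. Of the T cell markers 6 of 14 were measured, and Cd3d, Cd3g and Cd2 were among those that did not pass. Of the 6 measured, 5 were well above background on all 12 arrays. The 6 summed to 7495 to 8661 in Th1, 6544 to 11084 in Th17 and 9835 to 11223 in untreated microglia. Lck rose by 2.35 ± 0.25 (adjusted p = 2.21e-05), Cd28 fell by 5.28 ± 0.48 (adjusted p = 6.22e-06) and Cd5 fell by 1.31 ± 0.15 (adjusted p = 3.62e-05). Fibroblast and mural markers, with 4 of 10 measured and none called, summed to 2330 to 4129 in Th1 and 1970 to 3931 in untreated microglia. The 8 measured astrocyte markers summed to 4348 to 5929 in Th1, 4230 to 11976 in Th17 and 5077 to 12126 in untreated microglia. Of the 8, 1 was called, Fabp7, which fell by 2.24 ± 0.35 (limma, adjusted p = 0.000361). Over all named genes 9.04% were called lower. With the experiment as a block, Gfap was also called higher, by 1.02 (adjusted p = 0.00585), and Aldoc lower, at -1.72 (adjusted p = 0.000404).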

How the data were processed

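Total RNA of the microglia was converted to Cy3-labelled cRNA and measured on 12 Agilent 4x44K arrays, whose design names build mm9 per the file headers. Per the file headers, the deposited intensity values (gProcessedSignal) were background-subtracted by Agilent Feature Extraction 10.7.3.1 and not scaled between arrays. A deposited table of log2 values matched the scanner values centred per probe (r at least 0.99999 over 15963 probes) and served as an alternative only.

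Outlier-flagged spots were left out (103 to 230 per array), repeated spots were averaged, and signals were quantile-normalised, scaled to a 75th percentile of 1500, floored at 15 and log2-transformed, with 1 row per probe. Differences were fitted over 24287 probes with R 4.3.3 and limma 3.58.1, with 1 mean per group and no block, and Benjamini-Hochberg adjustment (adjusted p under 0.01, over 2-fold). The fit was tested on simulated data. The number of arrays, 4 per group, limits the precision, as does the floor for dim probes. Genes were named through RefSeq accessions (GRCm38.p6), which gave a symbol to 27234 of 39429 probes (69.1%). Where a listed gene had several kept probes, the one of highest mean signal was used.

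The members and gene lists were chosen with earlier results of these data known. Every member probe is described. From each list, up to 4 called genes of largest difference per comparison are named, along with the 5 genes nearest to Ly6a and the 3 nearest to each other member by RMS distance. Any measured gene of the Ly6/uPAR list could be named. Some genes that this rule selects are not reported here.

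Arrays sharing an experiment number deviated together from their group means (r 0.24 to 0.63 for all pairs), so the numbers pair the samples, and the experiment was tried as a block. Alternatives also covered normalisation, background correction, floor, filter, slide and single arrays.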

Additional observations from a re-analysis of the deposited data

Results flagged for a closer look

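Of 15 groups of 4 values, 5 probes in 3 groups, 1 held an array far from the others by Dixon's test, and chance alone sets off about 1 in 20. It was Ly6a in untreated microglia, where untreated 14 read 6.0 on the log2 scale and the other 3 arrays lay at the floor of 3.91. Since the 3 share the floor value, the gap between them and untreated 14 spans the whole range of the group.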

How the results depend on the processing

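Of 342 member differences under the alternatives, 335 moved by less than the replicate spread and 7 moved by more. With a floor of 50, the Ly6c1 probe A_55_P1961499 differed by 0.37 both between Th1 and untreated and between Th1 and Th17 microglia (0.77 and 0.94 otherwise), since its signal lies under 50 on most arrays. With normexp on the median signals, chosen after seeing the data, Ly6a differed by 7.43 between Th1 and untreated and by 7.05 between Th1 and Th17 microglia, Ly6c1 (A_55_P2064771) by 7.14 between Th1 and untreated microglia, and the other Ly6c1 probe by 0.20 and 0.23. The same correction called 1170 probes lower in place of 1937 in Th1 against untreated microglia and 1163 in place of 1930 against Th17 microglia, and the cause was not tested. No member difference in which Th1 arrays entered changed sign.

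With the replicate block, the pairing by experiment, 1934 probes were called higher and 2263 lower in Th1 against untreated microglia (1835 and 1937 without it), and the members' differences, such as 10.12 for Ly6a, and calls were the same. The block added calls of list genes, Cd59a among them.

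Leaving out single arrays gave 9.92 to 10.65 for Ly6a, 8.45 to 9.39 for Ly6c1, 2.80 to 3.24 for Ly6e and 2.26 to 2.60 for Ly6i between Th1 and untreated microglia. Normexp on mean signals and a filter on pixel spread were not run, as the columns were not used here. Keeping 1 probe per gene gave no value for the dimmer Ly6c1 probe. Detection of Ly6a on 1 of 4 untreated arrays limits its fold change.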
